A study of Mus musculus with 12 samples.

Results

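The genes described here are 10 genes of haemoglobin scavenging and iron handling, followed across the leukocytes of the neonatal mouse meninges: Cd163, Hmox1, Slc40a1, Slc48a1, Blvrb, Ftl1, Fth1, Tfrc, Hebp1 and Slc11a1. They were chosen by symbol and function, and each symbol matched 1 of the 28694 gene rows of the count matrices. The data are droplet single-cell RNA sequencing of the 5' ends of transcripts from the membranes around the brain of C57Bl/6j mice at postnatal day 4. The naive group holds 2 libraries of untreated pups, and the HI group holds 2 libraries of pups taken 6 h after hypoxia-ischemia (HI), an injury model in which oxygen and blood flow to the brain are both reduced. Each library is a pool of 12 pups, 6 male and 6 female, so the spread between libraries is not the spread between animals. No sham group is among the samples, and surgery or handling that came with HI cannot be told apart from HI. There were 2 runs, each of 1 HI and 1 naive pool, and which numbered library belongs to which run is not given in the labels.

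Free haemoglobin and haem are toxic, and macrophages are the cells that clear them. The receptor Cd163 takes up haemoglobin bound to haptoglobin, Slc48a1 (HRG1) carries haem out of the phagolysosome, and Hmox1 (haem oxygenase 1) opens the haem ring to release iron, carbon monoxide and biliverdin. Blvrb encodes biliverdin reductase B, and ferritin (the light chain Ftl1 and the heavy chain Fth1) stores the iron. Slc40a1 (ferroportin) is the only known exporter of iron from mammalian cells. Tfrc, the transferrin receptor, brings in iron from plasma, Slc11a1 (Nramp1) moves divalent metals out of the phagosome, and Hebp1 encodes a small haem-binding protein.

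The libraries held 4213 to 6421 barcodes and 51986763 to 68543046 UMIs (unique molecular identifiers, each standing for 1 captured transcript), and 20725 cells were kept. Any 2 libraries shared 29 to 55 barcode sequences, at most 1.07% of the smaller. Cells were assigned to classes by counting marker genes with a UMI after each cell had been thinned to 3000 UMIs, and none of the 10 genes served as a marker. The macrophage gate (at least 5 of 8 markers of border-associated macrophages, such as Mrc1, Pf4 and Cbr2) took 15133 cells, 73.0% of all. Microglia numbered 2142, non-classical monocytes 1025, B lineage cells 250, immature neutrophils 229, T, NK and innate lymphoid cells 223, classical monocytes 194, mature neutrophils 147, dendritic cells 83 and basophils or mast cells 45. All 8 macrophage markers were found in at least 20% of the gated macrophages, and all 8 microglial markers in at least 20% of the gated microglia. Levels are given as CPM, the UMIs of a gene scaled to counts per 1000000 UMIs of all cells of a class in a library.

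On the mouse build GRCm38.p6, RefSeq places Cd163 at chr6:124304636-124330529, Blvrb at chr7:27447978-27465981, Ftl1 at chr7:45457944-45459886 and Fth1 at chr19:9980600-9985111. Hmox1 lies at chr8:75093618-75100593, Slc40a1 at chr1:45908070-45926532, Slc48a1 at chr15:97784365-97792692, Tfrc at chr16:32608896-32632794, Hebp1 at chr6:135137519-135168215 and Slc11a1 at chr1:74375014-74386057. Stretches before annotated starts are shown, for Cd163 because it alone of the 10 genes passed the test between HI and naive in macrophages, and for the ferritin chains because they are high together in the macrophages with most Hmox1 transcripts. Capitals mark TGTTCT, a hexamer of steroid receptor elements, in the Cd163 stretch (chr6:124304401-124304635, plus strand). They mark the CCAAT box, here on the reverse strand as ATTGG, in the Ftl1 stretch (chr7:45459887-45460136, minus strand) and in the stretch before the second annotated start of Fth1 (chr19:9982396-9982645, plus strand), which lies inside the gene.
Cd163: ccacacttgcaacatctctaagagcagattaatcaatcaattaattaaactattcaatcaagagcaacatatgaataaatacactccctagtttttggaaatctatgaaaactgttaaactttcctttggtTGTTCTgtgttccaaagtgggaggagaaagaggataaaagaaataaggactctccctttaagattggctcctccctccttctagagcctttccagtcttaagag
Ftl1: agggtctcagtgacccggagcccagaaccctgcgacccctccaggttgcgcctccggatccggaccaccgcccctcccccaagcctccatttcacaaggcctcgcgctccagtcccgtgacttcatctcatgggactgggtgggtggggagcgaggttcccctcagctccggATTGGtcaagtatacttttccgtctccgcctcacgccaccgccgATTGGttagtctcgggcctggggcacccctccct
Fth1: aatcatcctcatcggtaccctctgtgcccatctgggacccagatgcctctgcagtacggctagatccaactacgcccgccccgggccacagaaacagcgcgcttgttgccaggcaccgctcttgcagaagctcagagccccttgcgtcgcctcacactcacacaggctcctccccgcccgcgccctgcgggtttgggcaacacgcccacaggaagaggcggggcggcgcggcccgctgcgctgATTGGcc
Searched on both strands in the 250 bases before each start, TGTTCT was present in 16.1% and CCAAT in 33.8% of 32851 RefSeq mouse windows. No window was given for Hmox1, Slc40a1 or Slc48a1, so these genes were not searched. The other 7 genes had 10 windows in all, of which 1 held TGTTCT and 4 held CCAAT. TGACNNNGC, the core of the antioxidant response element, was present in 10.2% of all windows and in 0 of these 10. No 2 matches overlap in the stretches shown, where the Cd163 stretch also holds 1 ATTGG, and a match describes letters, not binding.

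The first question is which cells carry these transcripts. Cd163, Slc40a1, Blvrb, Slc48a1 and Ftl1 were highest in macrophages, with ranges over the 4 libraries that did not touch those of the next of the 6 classes that had at least 25 cells in every library. Hebp1 was highest in microglia and Slc11a1 in non-classical monocytes, both without overlap, and Tfrc in B lineage cells, with a range that overlapped that of macrophages. Fth1 in macrophages overlapped with both classes of monocytes. The classical monocyte sums also held much neutrophil RNA. In them 7 mature neutrophil genes totalled 3320, 5699, 16880 and 15260 CPM in naive 1, naive 2, HI 1 and HI 2. Only 21, 15, 9 and 32 of the 48, 44, 31 and 71 cells passed that gate with 1 more marker. The part of neutrophil RNA in the levels given for classical monocytes was not tested.

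The uptake receptor Cd163 was counted at 280, 275, 552 and 513 CPM in the macrophages of naive 1, naive 2, HI 1 and HI 2. In microglia it stood at 0.323 to 1.22 CPM and in non-classical monocytes at 0 to 3.82 CPM. These levels were like those in lymphoid cells, which do not make it. B lineage cells gave 0, 0.964, 0 and 14.5 CPM in the same order of libraries, the last from 12 UMIs in 1 of 67 cells. The class difference to microglia was 8.98 ± 0.16 on the log2 scale (SE, 4 libraries, edgeR adjusted p = 6.61e-16). The small dendritic cell gate held more than those classes, at 40.3, 90.9, 74.7 and 66.1 CPM in the same order of libraries, from 13 to 26 cells per library. After thinning, a Cd163 UMI was found in 43.0% and 42.9% of naive macrophages, and in 0% to 1.49% of B lineage cells. Without thinning the shares were 65.98% and 63.8% of naive macrophages and again 0% to 1.49% of B lineage cells, at median depths of 9813 to 11211 and 7837 to 10049 UMIs.

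Slc40a1, the iron exporter, stood at 448 to 639 CPM in macrophages and 96.7 to 170 CPM in microglia, a difference of 2.196 ± 0.12 (log2, SE, edgeR adjusted p = 2.21e-10). Non-classical monocytes held 2.69 to 13.4 CPM, and classical monocytes held 0 UMIs in all 4 libraries. Neutrophils carried it as well: the 13 to 53 mature neutrophils per library gave 300, 606, 158 and 264 CPM in naive 1, naive 2, HI 1 and HI 2. Immature neutrophils, with granule genes such as Camp and Ltf, gave 119, 96.7, 109 and 117 CPM. Every neutrophil value lay above the 0 to 6.05 CPM of the lymphoid classes.

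Blvrb reached 871 to 1095 CPM in macrophages against 107 to 120 CPM in microglia and 97.5 to 165 CPM in non-classical monocytes. The difference to microglia was 3.16 ± 0.07 (log2, SE, edgeR adjusted p = 1.05e-14). Slc48a1, the haem transporter, differed less: 99.8 to 128 CPM in macrophages, 44.8 to 51.7 CPM in microglia and 21.7 to 53.9 CPM in the lymphoid classes. Basophils and mast cells, few in number, held Slc48a1 at 126, 151, 86.5 and 173 CPM (naive 1, naive 2, HI 1, HI 2), from as few as 2 cells in HI 1.

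Hmox1, the enzyme that opens the ring, followed another order. Macrophages held 662 to 1152 CPM and non-classical monocytes 432 to 683 CPM, ranges that overlap. Classical monocytes came next with 162 to 293 CPM, and microglia held 146 to 151 CPM. Lymphoid cells held 2.56 to 9.04 CPM. The difference between macrophages and non-classical monocytes was 0.41 ± 0.14 (log2, SE, edgeR adjusted p = 0.0150), and that between macrophages and microglia was 2.49 ± 0.14 (adjusted p = 4.14e-10).

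Ferritin light chain transcripts ran from 11220 to 12469 CPM in macrophages, 10099 to 10974 CPM in non-classical monocytes and 8070 to 9386 CPM in microglia, and 1082 to 1789 CPM in the lymphoid classes. The heavy chain gene Fth1 was less even. It held 5928 to 7098 CPM in macrophages and 2900 to 3360 CPM in microglia, a log2 difference of 1.09 ± 0.07 (SE, edgeR adjusted p = 1.04e-09), and the light chain differed by 0.38 ± 0.04 (adjusted p = 1.86e-06). In mature neutrophils Fth1 was counted at 4970 and 4447 CPM in the naive and 9561 and 8694 CPM in the HI libraries, without overlap. Those cells were too few for the test used here (13 in naive 1), so this difference was not tested. The share of all genes without overlap was not counted in mature neutrophils, and in macrophages it was 54.9%. Their naive 1 sum also held 15030 CPM of 4 MHC class II genes, against 0 to 9.31 CPM in the other libraries. Ferritin genes have processed copies elsewhere in the genome, and reads that fit several copies are counted in a way the sources used here do not state.

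Hebp1 reversed the order of the resident cells, at 101 to 140 CPM in microglia and 68.4 to 80.2 CPM in macrophages (log2 difference, macrophages minus microglia, -0.70 ± 0.10, SE, edgeR adjusted p = 1.50e-05), while monocytes held at most 16.4 CPM. Slc11a1, the phagosomal metal transporter, was highest in non-classical monocytes at 409 to 432 CPM, against 139 to 164 CPM in macrophages and 143 to 186 CPM in microglia. The macrophage and microglial ranges overlap and the test did not separate them (log2 difference -0.13 ± 0.08, adjusted p = 0.171). Mature neutrophils held 170 to 267 CPM of it and immature neutrophils 2.25 to 55.0 CPM. Tfrc was low throughout: 21.2 to 36.2 CPM in B lineage cells, 13.6 to 25.2 CPM in macrophages, 7.77 to 12.8 CPM in T, NK and innate lymphoid cells and at most 10.8 CPM in microglia.

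Of the 10 genes, 9 passed the test between macrophages and microglia and 8 between macrophages and non-classical monocytes. These classes differ widely, and 69.7% and 73.4% of all 11352 genes tested were called in the same comparisons. Between microglia and non-classical monocytes 8 of 10 genes were called, against 74.5% of all genes, and 5 when the 6 classes of at least 25 cells were fitted together, where 73.7% of genes were called.

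**Figure D1:**
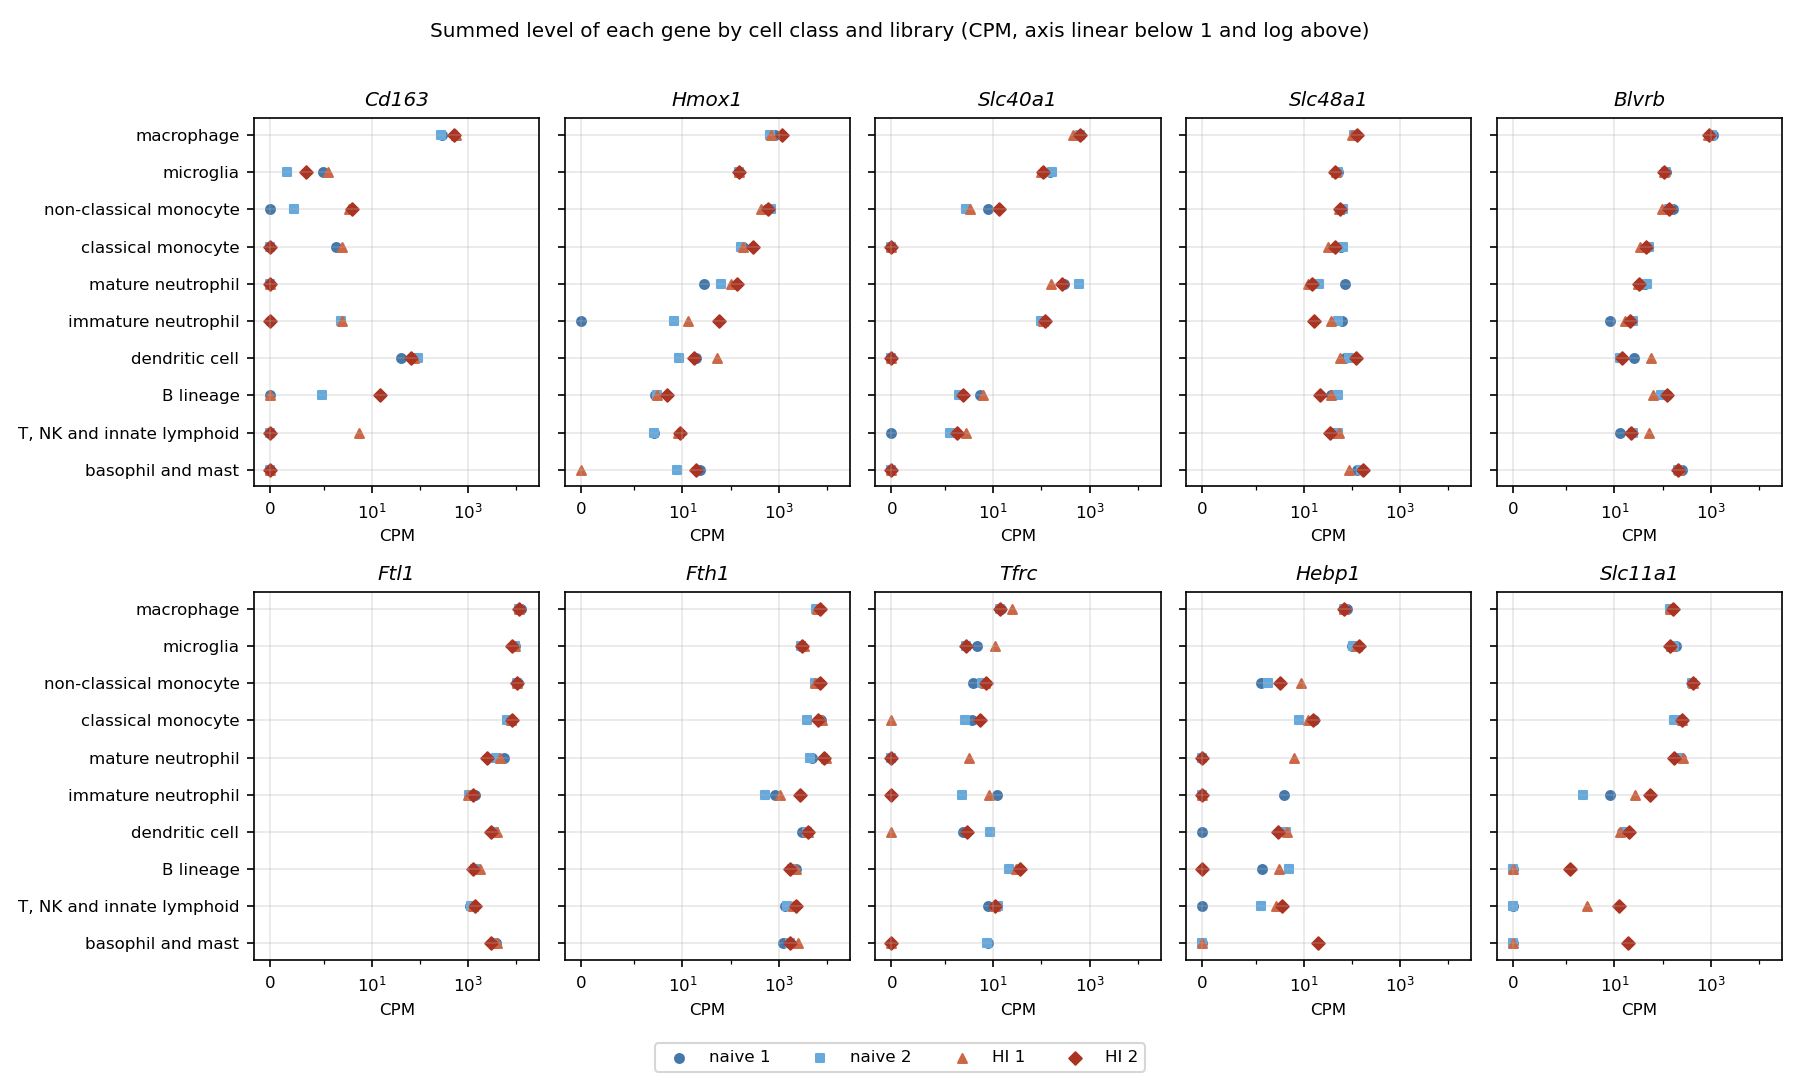
Summed level of each gene in CPM (horizontal axis, linear below 1 and logarithmic above) in 10 classes of cells, with 1 point per library. Cd163 stands at 275 to 552 CPM in macrophages and at most 14.5 CPM in the lymphoid classes, a value from 1 B lineage cell of HI 2. Hmox1 in macrophages and non-classical monocytes overlaps.

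By a rule of likeness, the 3 other genes closest to Cd163, Hmox1 and Slc40a1 were sought over the 24 sums of 6 classes and 4 libraries (Pearson's r of log2(CPM + 10), among 9048 genes). For Cd163 they were Egfr (r = 0.99), Lyve1 (0.99) and Ptprk (0.99). For Hmox1 they were Vamp8 (0.98), Laptm4a (0.98) and Hpgd (0.97), and for Slc40a1 they were Smim1 (0.99), Pmp22 (0.99) and Tnfrsf17 (0.99). The points of a library share their run and depth, and those of a class share the gate, so these values describe a shared pattern over classes.

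HI was then compared with naive in macrophages, with the library as the unit. Cd163 rose 1.94-fold. None of the other 9 genes passed the test. Hmox1, Fth1 and Slc11a1 passed when HI 1 was left out, and Slc40a1, Blvrb and Tfrc when HI 2 was left out. Such a fit sets 1 library against 2 and takes the spread between libraries from the other group alone, so the lone library is assumed to vary as that pair does. These p-values, here and in the other classes, describe how much a result rests on 1 library and do not show a change in HI. With 2 libraries per group the p-values measure only the spread between these pools, and the smallest exact 2-sided permutation p for a single value would be 0.33.

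Cd163 went from 280 and 275 CPM in the naive libraries to 552 and 513 CPM in the HI libraries, from 278 ± 3.99 to 532 ± 27.98 CPM (mean ± SD, n = 2 each). Both HI libraries lay above both naive libraries, and the log2 change was 0.96 ± 0.05 (SE, edgeR quasi-likelihood test, Benjamini-Hochberg adjusted p = 0.00252). In this comparison 5.19% of 13247 genes were called (2.76% higher, 2.44% lower), and 1 of the 10 genes was. The median log2 change was 0.07 over the 10 genes and 7.36e-04 over all genes tested. The share of macrophages with a Cd163 UMI at 3000 UMIs per cell was 43.0% and 42.9% in naive and 57.4% and 54.6% in HI. Without thinning it was 65.98% and 63.8% against 73.2% and 69.2%.

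RNA of other cells moved with HI in the same sums. The summed level of 6 neuronal and glial genes in macrophages was 130 and 110 CPM in naive and 31.3 and 48.3 CPM in HI libraries, and that of 6 choroid plexus genes was 225 and 130 CPM against 23.7 and 20.9 CPM. Without the cells that carried a UMI of either list, the log2 change of Cd163 was 0.92 (edgeR adjusted p = 0.00155). It passed in all 12 alternatives run, that one included, at 0.92 to 0.99.

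The rise was found in each macrophage subset that could be tested. In macrophages with Lyve1 and no MHC class II UMI, the perivascular and leptomeningeal type, Cd163 stood at 282, 275, 565 and 515 CPM in naive 1, naive 2, HI 1 and HI 2 (log2 change 0.97 ± 0.06, SE, edgeR adjusted p = 0.00115), where 4.36% of genes were called. In the 71 to 140 macrophages per library with an MHC class II UMI and no Lyve1 it stood at 207, 193, 383 and 342 CPM (0.85 ± 0.13, adjusted p = 0.0149), where 0.444% were called. In dividing macrophages it stood at 191, 228, 432 and 466 CPM (1.09 ± 0.11, adjusted p = 7.53e-04), where 0.614% were called. Both HI libraries lay above both naive libraries in each subset. Cd163 was the 1 gene of the 10 called in each of these subsets. The MHC class II gate asks for a UMI of only 1 of 4 genes.

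Blvrb lay lower in both HI libraries, at 871 and 937 CPM, than in the naive libraries, at 1095 and 1070 CPM. The log2 change of -0.24 ± 0.07 (SE) did not pass (edgeR adjusted p = 0.0817), and it passed with DESeq2 (adjusted p = 0.0206), without the filter on low counts (0.0240) and without HI 2 (0.00403). Ftl1 stood at 12469 and 11322 CPM in naive and 11220 and 11225 CPM in HI, and Hebp1 at 80.2 and 69.2 against 68.4 and 68.6 CPM, in both cases without overlap and by small margins (log2 changes -0.07 ± 0.07 and -0.11 ± 0.08, adjusted p = 0.618 and 0.446). Groups that do not overlap in this comparison are common, at 54.9% of all genes tested.

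The HI libraries differed in Hmox1. Its level was 832 and 662 CPM in naive 1 and naive 2, 685 CPM in HI 1 and 1152 CPM in HI 2, so the groups overlap (log2 change 0.32 ± 0.23, SE, edgeR adjusted p = 0.450). Without HI 1 the change was 0.67 (adjusted p = 1.32e-04). Fth1 (6434, 5928, 6203 and 7098 CPM in the same order) and Slc11a1 (146, 139, 140 and 164 CPM) were likewise highest in HI 2, and passed without HI 1, at 0.24 (adjusted p = 0.0198) and 0.25 (adjusted p = 0.0321). Slc48a1, at 117, 109, 99.8 and 128 CPM, was also highest in HI 2, with overlapping groups and a log2 change of 0.03 ± 0.12 (adjusted p = 0.908).

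Slc40a1 was lowest and Tfrc highest in HI 1. Slc40a1 held 639 and 627 CPM in naive, 448 CPM in HI 1 and 635 CPM in HI 2, and Tfrc held 14.7, 13.6, 25.2 and 13.6 CPM. With both HI libraries the log2 changes were -0.20 ± 0.15 for Slc40a1 (SE, edgeR adjusted p = 0.469) and 0.46 ± 0.24 for Tfrc (adjusted p = 0.303). Without HI 2 they were -0.50 (adjusted p = 1.05e-04) and 0.84 (adjusted p = 1.60e-05), with the spread of the naive pair alone, and Tfrc also passed without the filter on low counts (0.47, adjusted p = 0.0314). In HI 2 the level of each was inside the naive range.

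**Figure D2:**
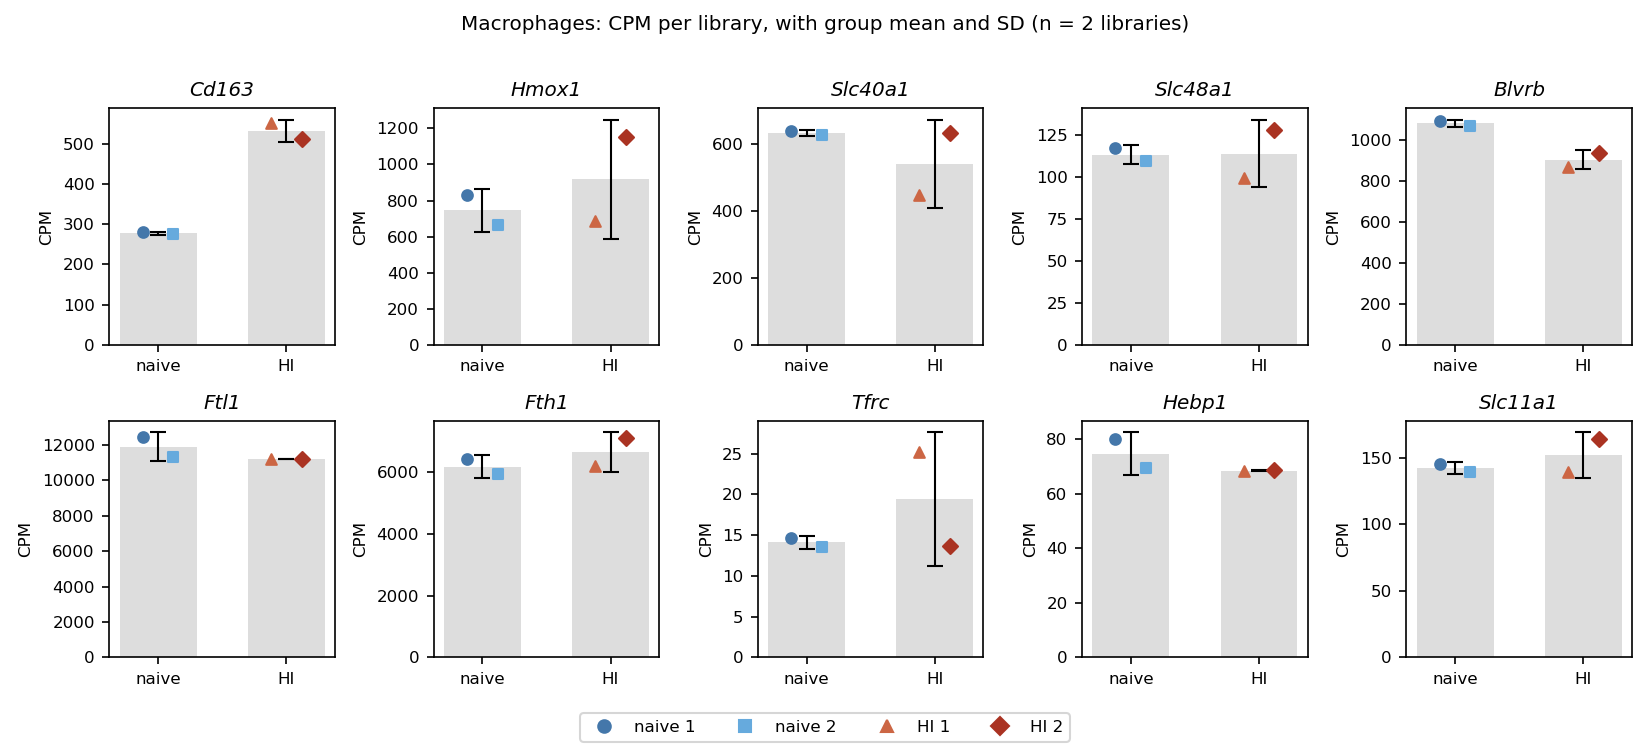
CPM of each gene in macrophages by group, with 1 point per library, a bar at the group mean and an SD bar over 2 libraries. The Cd163 groups are apart (275 and 280 against 513 and 552 CPM), while HI 1 and HI 2 stand apart for Hmox1, Slc40a1 and Tfrc.

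Read as shares of cells at equal depth, the picture of Hmox1 differed from its summed level. An Hmox1 UMI was found in 67.4% and 67.1% of naive macrophages and in 71.6% and 72.2% of HI macrophages, so both HI libraries lay above both naive ones. Slc40a1 was detected in 73.6% and 74.7% of naive and 64.7% and 69.5% of HI macrophages, and Blvrb in 95.7% and 94.5% against 90.7% and 92.7%. Of the 8 genes other than ferritin, 2 were higher in HI without overlap (Cd163 and Hmox1) and 2 lower (Slc40a1 and Blvrb). Among 6023 genes detected in 5% to 95% of macrophages, 23.6% were higher and 27.0% lower in that sense, so these counts are near the background, and no test was made on shares. Exact binomial intervals (95%) cover counting error alone, for example 65.8% to 68.97% for Hmox1 in naive 1.

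A small number of macrophages held very many Hmox1 transcripts. Most macrophages held 0 to 5 Hmox1 UMIs among 3000, and a minority held 6 or more, up to 124 in 1 cell. This minority made up 4.42%, 3.49%, 3.17% and 6.47% of the macrophages of naive 1, naive 2, HI 1 and HI 2, and held 51.1%, 40.6%, 31.8% and 62.2% of their Hmox1 UMIs. It was largest in HI 2 and next in naive 1, as the summed level was. In the remaining macrophages the mean was 1.18, 1.21, 1.37 and 1.32 Hmox1 UMIs per cell, higher in both HI libraries. The limit of 6 was set after seeing the counts, and cells with exactly 5 numbered 52, 64, 63 and 86 and cells with exactly 6 numbered 22, 23, 24 and 37. The median in these cells was 20, 12, 8.5 and 23 UMIs. They are a range of Hmox1 counts and are given no cell type name, and whether they form a group apart was not tested.

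Of the other 9 genes, 6 had a higher mean in these cells than in the other macrophages of every library, and Cd163 had a lower one. Among 7581 genes with at least 20 UMIs in these cells, 8.06% were higher and 18.7% lower in all 4 libraries. Most other genes of haem and iron were not higher there: of 37 in 5 lists with as many UMIs, 4 were higher in all 4 libraries and 10 lower. The 4 were Blvra (1.10-fold to 1.25-fold), Slc11a2 (1.01-fold to 1.43-fold), Mcoln1 (1.02-fold to 1.29-fold) and Cisd2 (1.12-fold to 1.37-fold). Among the 10 were Hmox2, the constitutive haem oxygenase (0.72-fold to 0.92-fold), and Tf, transferrin (0.67-fold to 0.77-fold). Cp, the ferroxidase ceruloplasmin, was another (0.52-fold to 0.65-fold). Slc48a1 averaged 1.88, 1.63, 1.38 and 2.03 UMIs per cell there (naive 1, naive 2, HI 1, HI 2) against 0.299, 0.285, 0.267 and 0.278 in the other macrophages, 5.18-fold to 7.29-fold more. Slc40a1 was 3.67-fold to 5.57-fold higher (7.95, 6.79, 5 and 8.45 against 1.68, 1.78, 1.36 and 1.52 UMIs). The haem transporter and the iron exporter thus lay high in all 4 libraries.

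Both ferritin chains did so as well. Fth1 was 2.97-fold to 4.39-fold higher in these cells, at 51.5 to 75.8 UMIs per cell against 16.6 to 17.4. Ftl1 was 2.39-fold to 3.31-fold higher, at 75.7 to 95.7 UMIs against 28.4 to 33.6. Slc11a1 was 2.63-fold to 3.395-fold higher, and Blvrb 1.34-fold to 1.59-fold. Ranked by the lowest fold of the 4 libraries among 5937 other genes, Slc48a1 came first, Slc40a1 was number 2, Fth1 number 4, Slc11a1 number 7, Ftl1 number 11 and Blvrb number 57. The median gene had a fold of 0.94.

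Cd163, Hebp1 and Tfrc did not share this pattern. Cd163 averaged 0.796, 0.596, 1.52 and 1.31 UMIs in the Hmox1-rich macrophages against 0.879, 0.846, 1.73 and 1.56 in the rest, 0.70-fold to 0.91-fold. Hebp1 lay between 0.80-fold and 1.31-fold and Tfrc between 0.65-fold and 1.03-fold, on only 24 Tfrc UMIs in all those cells. Cd163 was higher in both HI libraries than in both naive libraries in each set of cells.

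Some regulators of the pathway are named after their values were seen. Spic, the transcription factor of iron-recycling red pulp macrophages, averaged 0.0319 to 0.0460 UMIs in these cells against 0.00520 to 0.00792 in the rest, on 26 UMIs. Bach1, the haem-sensing repressor of Hmox1, was 1.11-fold to 1.79-fold higher, Nfe2l2 (Nrf2) lay between 0.96-fold and 1.10-fold, and Maf, a macrophage transcription factor, was lower at 0.81-fold to 0.89-fold. Of the genes outside the lists, Creg1, a lysosomal glycoprotein (3.13-fold to 3.95-fold), Sqstm1, an autophagy adaptor (2.66-fold to 3.06-fold), and Prdx1, a peroxidase (2.44-fold to 4.60-fold), were high too; they were chosen after their values were seen. Lyve1 was detected in 77.0% to 85.1% of these cells and in 84.4% to 94.4% of those in the lower ranges of Hmox1.

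Transcripts of red cells were counted beside this. Haemoglobin genes (Hba-a1, Hba-a2, Hbb-bs and Hbb-bt, near-identical copies in part) gave 47, 12, 12 and 160 UMIs in the macrophages of naive 1, naive 2, HI 1 and HI 2, of which 30, 1, 3 and 151 lay in the Hmox1-rich cells. In naive 2 and HI 1 most of them thus lay in the other macrophages. The 151 in HI 2 came from 6 cells, and the other macrophages of HI 2 held 9, no more than those of HI 1 (9) and fewer than those of naive 1 (17). A haemoglobin UMI was found in 2.63%, 0.685%, 3.19% and 2.04% of the Hmox1-rich macrophages and in 0.457%, 0.0991%, 0.313% and 0.212% of the others. The total, which rests on few cells, was highest in HI 2 and next in naive 1, as Hmox1 was, and its part in the Hmox1 level was not tested. The median UMI total per cell was higher in the Hmox1-rich cells of each library, at 10740 to 12900 against 9755 to 11190. With these cells left out, 661 genes were called between HI and naive in macrophages, Cd163 kept its change (0.96, edgeR adjusted p = 0.00188), and Slc40a1 did not pass (-0.29, adjusted p = 0.114).

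**Figure D3:**
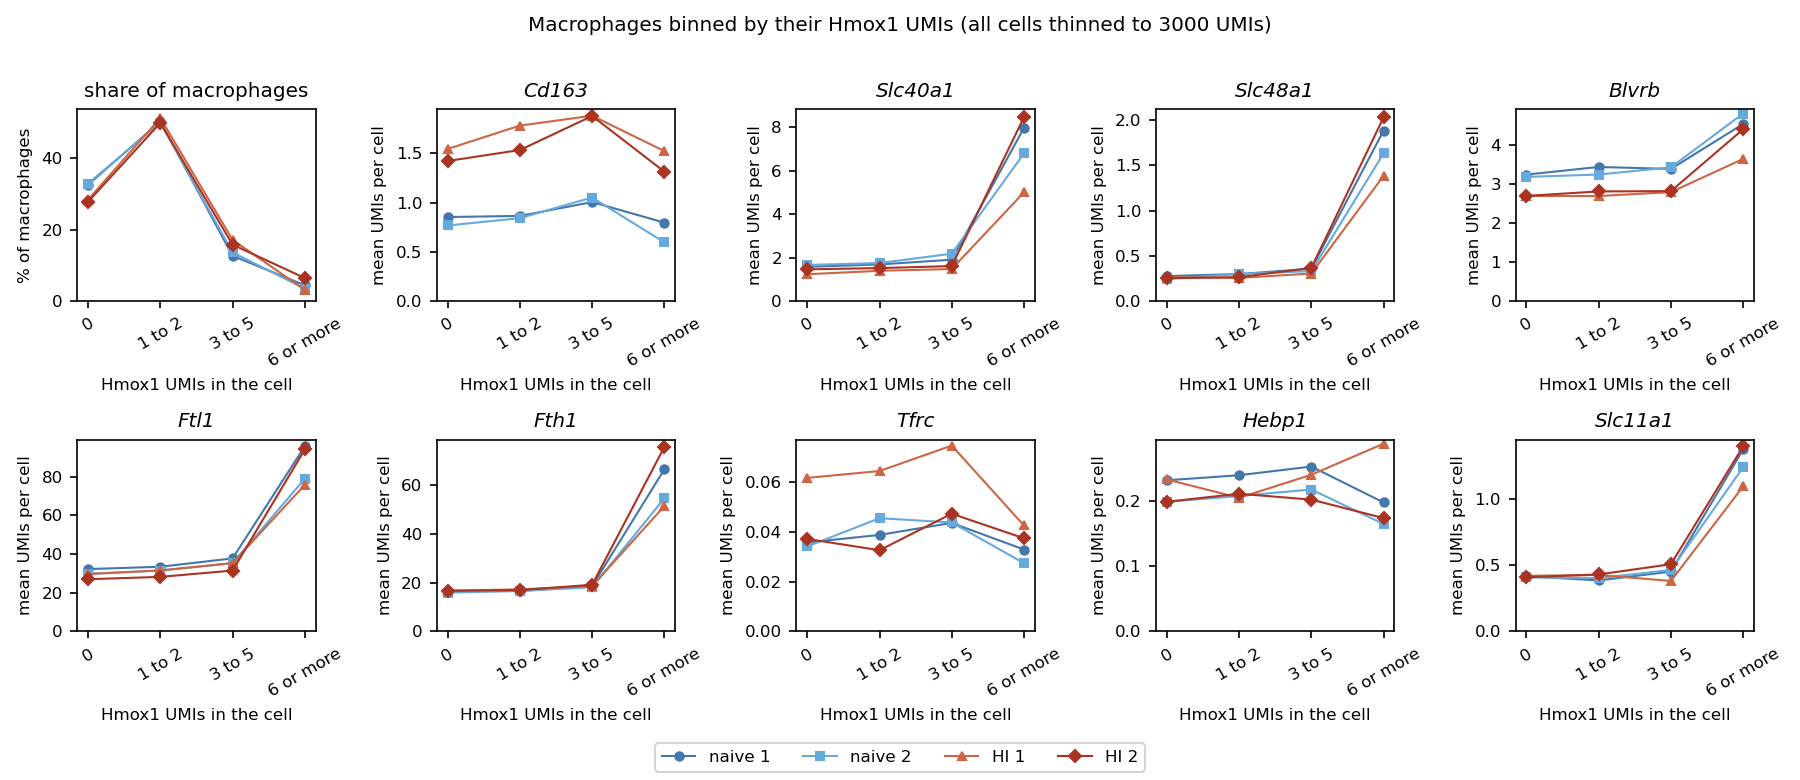
Macrophages of each library by the number of Hmox1 UMIs in the cell after thinning to 3000 UMIs, as the share of macrophages (first panel) and as mean UMIs per cell of the other 9 genes. Slc40a1, Slc48a1, Fth1 and Ftl1 are higher at 3 to 5 UMIs than at 0 in every library, for example Slc40a1 in naive 2 (2.18 against 1.66). These genes and Slc11a1 are far higher at 6 or more, where Slc40a1 reaches 5 to 8.45 UMIs. Cd163 is also higher at 3 to 5 UMIs than at 0, and is lower again at 6 or more in every library.

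Co-detection was described for the 28 pairs of the 8 genes other than ferritin, which nearly every macrophage carried. An odds ratio above 1 means that the pair was found in the same cell more often than its separate shares imply. It was above 1 in all 4 libraries for 9 pairs and below 1 in all 4 for 5 pairs. Over the 18135253 pairs of the 6023 genes detected in 5% to 95% of macrophages, 9.11% were above 1 and 6.42% below 1 in all 4. Tfrc lay below that range in 3 of the 4 libraries, with a UMI in 3.47% to 5.97% of macrophages. The highest was Slc40a1 with Blvrb, at 1.60 to 1.75, and among 6022 genes detected in 5% to 95% of macrophages Blvrb was the first partner of Slc40a1. Hmox1 with Slc48a1 ran from 1.09 to 1.46, number 5 of 6022 partners of Hmox1, and Slc48a1 with Slc11a1 from 1.21 to 1.58. Slc40a1 also went with Slc48a1 (1.23 to 1.34), with Slc11a1 (1.23 to 1.404) and with Hmox1 (1.16 to 1.29).

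Cd163 was found with Hmox1 at 1.07 to 1.404, with Slc40a1 at 1.02 to 1.30 and with Tfrc at 1.04 to 1.30. It was found less often with Slc11a1 (0.782 to 0.964) and Hebp1 (0.890 to 0.931). Within Lyve1 macrophages alone, its ranges with Slc40a1 (0.955 to 1.26), Slc11a1 (0.785 to 1.01) and Hebp1 (0.922 to 1.06) spanned 1. There its pairs with Hmox1 (1.05 to 1.37) and Tfrc (1.03 to 1.12) stayed above 1, and Slc40a1 with Tfrc stayed below (0.707 to 0.922). The exporter Slc40a1 and the importer Tfrc had odds ratios of 0.749 to 0.892. Their median of 0.827 lay within the range that holds the middle of the 6023 partners of Tfrc (0.787 at the 5th to 1.33 at the 95th percentile), as number 5502, and just under the 5th percentile of the partners of Slc40a1 (0.852). The median odds ratio of all partner genes was 0.99 for Cd163 and for Hmox1 and 1.00 for Slc40a1. The level of the ferritin chains went together from cell to cell with Spearman's rho of 0.40 to 0.44 within each library (2967 to 4547 cells, which share library and depth). Without thinning, where deeper cells show more of every gene, 23 pairs were above 1 and 0 below 1 in all libraries, and Slc40a1 with Tfrc had a median of 1.01. Cells of a library are not replicates, so no test was made.

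**Figure D4:**
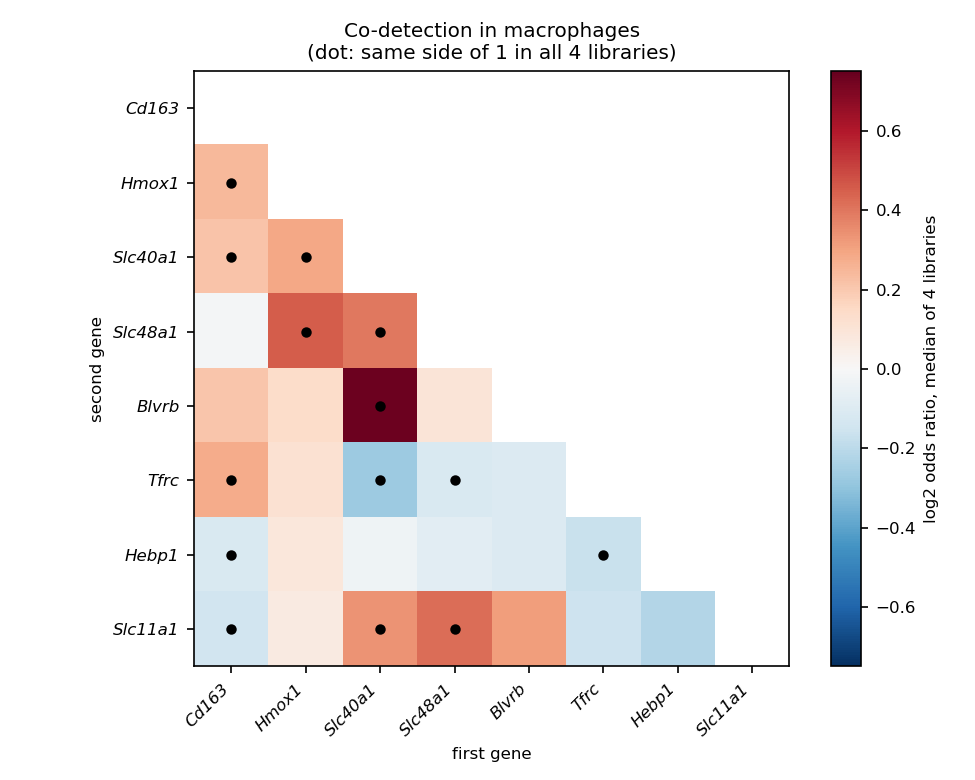
Median over 4 libraries of the log2 odds ratio that 2 genes are found in the same macrophage, for 28 pairs (colour, red above and blue below 0). Dots mark the 9 pairs above and 5 pairs below 1 in every library; Slc40a1 with Blvrb is the highest, at an odds ratio of 1.66.

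The levels were also compared between macrophage subsets of the same libraries. Macrophages with Lyve1 held more Cd163 and Tfrc, and those with an MHC class II UMI and no Lyve1, a border macrophage type that presents antigen, held more Hmox1, Slc48a1, Fth1, Ftl1, Hebp1 and Slc11a1. With 8 of 10 genes called against 6.16% of the 11582 genes tested (2.69% higher in Lyve1 macrophages, 3.48% lower), 2 were higher in Lyve1 macrophages and 6 lower.

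Hmox1 stood at 1556, 1228, 667 and 2439 CPM in the MHC class II subset of naive 1, naive 2, HI 1 and HI 2, and at 731, 625, 676 and 890 CPM in the Lyve1 subset. It was higher in the MHC class II subset of 3 libraries and about level in HI 1 (log2 difference, Lyve1 minus MHC class II, -0.91 ± 0.11, SE, edgeR adjusted p = 5.23e-07). Fth1 followed with 9656, 8602, 6989 and 11712 CPM against 6022, 5737, 5977 and 6471 CPM (-0.59 ± 0.05, adjusted p = 1.04e-09). The differences were -0.58 for Slc48a1, -0.41 for Ftl1, -0.38 for Hebp1 and -0.38 for Slc11a1. In HI 1, Slc48a1 (88.7 against 98.8 CPM in the Lyve1 subset) and Slc11a1 (133 against 140 CPM) ran the other way. Tfrc gave 13.1 to 26.002 CPM in Lyve1 macrophages and 4.81 to 7.60 CPM in the MHC class II subset, on 4 to 7 UMIs per library (1.51 ± 0.25, adjusted p = 1.10e-04). At equal depth an Hmox1 UMI was found in 60% to 80% of the MHC class II and 66.1% to 72.0% of the Lyve1 subset. These ranges overlap. Of the Hmox1-rich macrophages, 23.0%, 19.9%, 20.2% and 32.0% held an MHC class II UMI in naive 1, naive 2, HI 1 and HI 2. Of the other macrophages, 18.9%, 16.25%, 22.3% and 19.7% did. Both shares also count cells with Lyve1, whereas the MHC class II subset without Lyve1 held only 387 of the 15133 macrophages. The part of the Hmox1-rich cells in the differences between subsets was not tested.

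Cd163 was 0.53 ± 0.06 higher in the Lyve1 subset (log2, SE, edgeR adjusted p = 7.47e-08). Slc40a1 (-0.21, adjusted p = 0.137) and Blvrb (0.03, adjusted p = 0.819) did not pass. Hebp1 no longer passed without naive 2, HI 1 or HI 2 (adjusted p = 0.0615, 0.0714 and 0.0609), Slc11a1 did not without naive 1 (-0.18, adjusted p = 0.453), and Slc40a1 passed without HI 1 (-0.37, adjusted p = 2.69e-07).

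HI was next compared with naive in microglia, the macrophages of the brain tissue itself. Slc40a1 and Slc11a1 fell, and 7 other genes tested did not pass. In this class 2.26% of 10767 genes were called (1.11% higher, 1.15% lower), and 2 of the 9 genes tested were. Cd163 had too few UMIs (22 in all libraries) to be tested.

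Slc40a1 stood at 151 and 170 CPM in naive and 96.7 and 109 CPM in HI microglia, 160 ± 13.5 against 103 ± 8.68 CPM (SD, n = 2 each), without overlap, as were 47.6% of the genes tested. It fell by 0.66 ± 0.10 on the log2 scale (SE, edgeR adjusted p = 0.00962), and the call was lost without naive 1 (adjusted p = 0.0659) or naive 2 (adjusted p = 0.0822) at a like size of change. Slc11a1 stood at 186 and 176 CPM against 148 and 143 CPM, and fell by 0.33 ± 0.08 (adjusted p = 0.0498), a call lost with DESeq2 (adjusted p = 0.0975), without doublet removal (0.0549), without naive 1 (0.406) and without naive 2 (0.285). Hebp1 went from 101 and 106 CPM to 127 and 140 CPM, without overlap, and did not pass (0.36 ± 0.09, adjusted p = 0.0590). It passed with the gate that asks for 1 more marker (0.39, adjusted p = 0.0402), without the filter on low counts (0.36, adjusted p = 0.00674) and without HI 1 (0.43, adjusted p = 3.71e-04). Without HI 1, Ftl1 also passed (-0.23, adjusted p = 0.00137), and without HI 2 so did Fth1 (0.17, adjusted p = 0.0390) and Tfrc (1.46, adjusted p = 9.26e-05).

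Neutrophil RNA stood apart in 1 of these sums: the 7 mature neutrophil genes totalled 402 CPM in the microglia of HI 1 against 79.8 to 101 CPM in the other libraries. Microglial markers totalled 10450 and 10610 CPM in naive and 7703 and 8906 CPM in HI, and the part of either in the fall of Slc40a1 and Slc11a1 was not tested. Tfrc was highest in HI 1 here too, at 4.69, 2.74, 10.8 and 2.78 CPM in naive 1, naive 2, HI 1 and HI 2 (0.74 ± 0.50, adjusted p = 0.502). Hmox1 held 147, 151, 149 and 146 CPM, a log2 change of -0.04 ± 0.08 (adjusted p = 0.877).

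In non-classical monocytes 0 of the 8 genes tested passed with edgeR, where 1.41% of 8033 genes were called and 887 had an unadjusted p under 0.05. DESeq2 called 0 of them as well. Hmox1 stood at 573, 683, 432 and 587 CPM in naive 1, naive 2, HI 1 and HI 2, overlapping (-0.31 ± 0.12, SE, adjusted p = 0.309). With the stricter gate it was -0.68 (adjusted p = 3.55e-04), and it also passed without naive 1 (-0.44, adjusted p = 0.0459), without HI 2 (-0.59, adjusted p = 4.23e-04) and without the filter on low counts (-0.32, adjusted p = 0.0456). Blvrb passed without HI 2 (-0.64, adjusted p = 0.0346). Slc11a1, at 409 to 432 CPM, moved by 0.04 ± 0.09.

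The effect of HI was compared between classes by an interaction term. Against microglia, 3 of the 10 genes differed, with 1.73% of 12951 genes called: Slc40a1 (0.43 ± 0.10 higher in macrophages, log2, SE, edgeR adjusted p = 0.0420), Slc11a1 (0.43 ± 0.09, adjusted p = 0.0186) and Hebp1 (-0.48 ± 0.10, adjusted p = 0.0183). Against non-classical monocytes, with 1.76% of 12697 called, Hmox1 differed (0.62 ± 0.11, adjusted p = 6.25e-06). The test shrinks the spread of single genes to a common trend, and the log2 ratios of Hmox1 between the classes were 0.54 and -0.04 in naive and 0.66 and 0.97 in HI libraries, so its own spread is large. The Cd163 effect was not separable between macrophages and microglia (0.58 ± 0.59, adjusted p = 0.772), where microglia held 2 to 8 UMIs per library, nor between macrophages and non-classical monocytes (-2.80 ± 1.02, adjusted p = 0.340), where monocytes held 0 to 6.

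**Figure D5:**
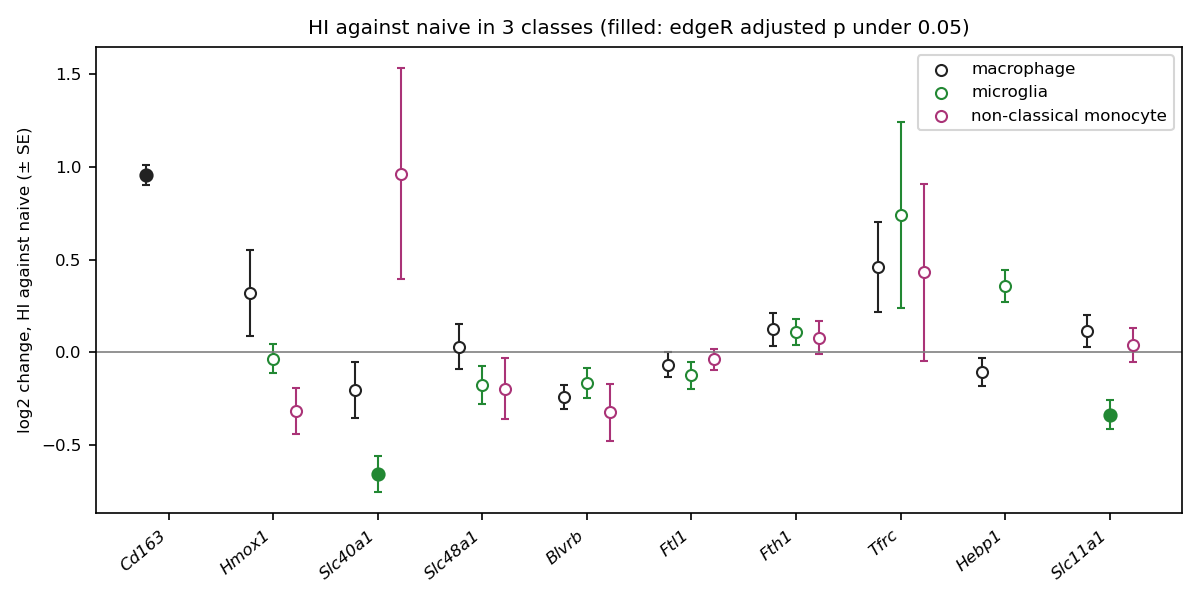
Log2 change between HI and naive (vertical axis, points with SE bars, 2 libraries per group) of each gene in macrophages, microglia and non-classical monocytes, filled where the edgeR adjusted p is under 0.05. Cd163 in macrophages (0.96) and Slc40a1 (-0.66) and Slc11a1 (-0.33) in microglia are filled, and genes with too few UMIs have no point.

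Other genes of the pathway were followed by 5 lists. In macrophages, 1 of 10 tested genes of haem uptake, export and breakdown rose, 0 of 10 of haem synthesis, 2 of 10 of iron uptake and release, 1 of 8 of iron storage and regulation and 0 of 11 of mitochondrial iron and iron-sulphur clusters, and none of these fell, where 2.76% of all genes tested were called higher and 2.44% lower. The median log2 changes of the lists were 0.07 to 0.13, beside 7.36e-04 over all genes.

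Those that rose were led in size by Steap4, a ferrireductase, with 4 UMIs in the naive and 49 in the HI libraries (3.57 ± 0.65, log2, SE, edgeR adjusted p = 0.0313). Slc39a14 (Zip14), an importer of iron not bound to transferrin, went from 2.70 and 2.45 to 5.97 and 4.74 CPM (1.07 ± 0.16, adjusted p = 0.0185). Hfe, a partner of the transferrin receptor, rose by 0.39 ± 0.08 (adjusted p = 0.0385), and Slco2b1, an anion transporter also linked to haem uptake, by 0.28 ± 0.05 (adjusted p = 0.0320).

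The list genes past the threshold in the other classes were named after their values were seen. Slc39a14 also rose in microglia, from 5.31 and 4.52 to 16.4 and 13.7 CPM (1.57 ± 0.21, log2, SE, edgeR adjusted p = 0.00704), with Tspo, a mitochondrial membrane protein (0.40 ± 0.08, adjusted p = 0.0290). In non-classical monocytes Hp, which encodes haptoglobin, the plasma protein that Cd163 recognises when it holds haemoglobin, went from 638 and 705 to 858 and 1248 CPM (0.63 ± 0.13, adjusted p = 0.0139). Neutrophil RNA was also highest in HI 2 in these sums: 7 mature neutrophil genes totalled 213, 440, 494 and 1264 CPM in naive 1, naive 2, HI 1 and HI 2, and 9 immature neutrophil genes 131, 331, 382 and 1158 CPM. Its part in the rise of Hp was not tested. Tspo (0.59 ± 0.11, adjusted p = 0.00821) and Fbxl5, the iron-sensing ligase subunit (0.65 ± 0.15, adjusted p = 0.0314), rose there too.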

How the data were processed

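Gene expression counts of 4 meningeal leukocyte libraries (2 naive, 2 HI) were analysed, and the B and T cell receptor libraries were not used here. The deposited count matrices hold whole UMI counts per gene and barcode, which the authors made with Cell Ranger 2.2.0 on mm10, per the submitters' processing notes. Barcodes under 200 genes or over 10% mitochondrial UMIs were dropped. An automatic Scrublet limit marked only 1 to 3 barcodes per library, so the highest scores were removed instead, at 0.8% per 1000 barcodes (142 to 329 per library). Each cell was thinned to 3000 UMIs for gating, shares, co-detection and means per cell, and no cell was shallower. Gates count markers with a UMI, for example 5 of 8 for macrophages, 4 of 8 for microglia and 3 of 7 for non-classical monocytes, and their minimums were set after the counts had been seen. Cells that passed several gates (428) or none (808) stayed out of the classes.

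Unthinned counts were summed per class and library and tested with edgeR 4.0.16 (R 4.3.3, TMM scaling, filterByExpr, quasi-likelihood test, Benjamini-Hochberg over all genes at 0.05), where each library had 40 cells of the class or more. Classes were compared with the library as a term. DESeq2 1.42.0, other scalings, no filter, leave-one-out fits, the replicate block, no doublet removal, stricter gates and cells without neuronal or choroid plexus UMIs were alternatives. On simulated counts, edgeR called 85%, 85% and 70% of genes changed 2-fold in macrophages, microglia and non-classical monocytes, and 59%, 26% and 18% of those changed 1.4-fold. All genes of a class were simulated with a common spread between libraries, so these shares do not cover genes that vary more, such as Hmox1. Other iron and haem genes were named where they passed in macrophages, and all 10 genes wherever measured. A gene of the lists is not reported here. The genes, lists and markers were chosen with earlier results of these data known. Promoters are RefSeq sequences of GRCm38.p6.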

Additional observations from a re-analysis of the deposited data

Results flagged for a closer look

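The effect of HI differed between classes for these genes, by an interaction term in edgeR with adjusted p. For Slc40a1, the effect in macrophages minus that in microglia was 0.43 on the log2 scale (adjusted p = 0.0420), and the log2 ratios of macrophages to microglia were 2.08 and 1.88 in naive and 2.21 and 2.54 in HI libraries. For Hebp1 it was -0.48 (adjusted p = 0.0183), with ratios of -0.33 and -0.61 against -0.90 and -1.03. For Slc11a1 it was 0.43 (adjusted p = 0.0186), with ratios of -0.35 and -0.34 against -0.08 and 0.19. For Hmox1, macrophages minus non-classical monocytes, it was 0.62 (adjusted p = 6.25e-06), with ratios of 0.54 and -0.04 against 0.66 and 0.97.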

How the results depend on the processing

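Of 474 alternative log2 changes of single genes, 436 kept their side of the threshold, 25 newly passed and 13 no longer passed. The 436 include any that changed sign while neither fit passed. Whether library numbers pair the samples is not known, because the labels do not tie a number to a run. The correlations of same-numbered deviations were 0.06, -0.02 and 0.15 in macrophages, microglia and non-classical monocytes, and these values cannot decide it. The replicate block treats libraries of the same number as pairs. With the replicate block, 2001, 996 and 171 genes were called in these classes against 688, 243 and 113, and 2 of the 10 genes in macrophages (Cd163, and Blvrb at adjusted p = 0.0210), 3 in microglia (Hebp1 added, 0.00264) and 1 in monocytes (Hmox1, 0.0318). Without the filter on low counts the calls were 1792, 761 and 232, with 3 of the 10 genes in macrophages and 1 in monocytes. DESeq2 called 139 genes in microglia and 51 in monocytes, with 2 of the 10 in macrophages and 1 in microglia. Without doublet removal 1 of the 10 was called in microglia, and with the stricter gate 1 in monocytes. Leaving out 1 library gave 162 to 1893 genes in macrophages (1 to 4 of the 10), 8 to 1226 in microglia (0 to 4), 118 to 241 in monocytes (0 to 2) and 406 to 658 between Lyve1 and MHC class II macrophages. With classes of at least 25 cells, 5 of the 10 separated microglia from monocytes. Without thinning, 23 pairs were above and 0 below an odds ratio of 1 in all libraries, and medians turned from 0.924 to 1.14 (Cd163 with Hebp1), 0.827 to 1.01 (Slc40a1 with Tfrc), 0.922 to 1.29 (Slc48a1 with Tfrc) and 0.891 to 1.33 (Tfrc with Hebp1). The cause of these shifts was not tested.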

Other observations

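Dividing macrophages held less Hmox1 than the other macrophages of the same library, at 542, 359, 336 and 340 CPM in naive 1, naive 2, HI 1 and HI 2 against 850, 684, 698 and 1192 CPM. Their Blvrb (741, 698, 560 and 580 CPM against 1117, 1096, 883 and 955 CPM) and Slc11a1 (91.8, 76.3, 75.8 and 100.1 CPM against 149, 143, 142 and 167 CPM) were lower too. Slc40a1 stood at 239 to 447 against 456 to 652 CPM and Slc48a1 at 68.4 to 82.7 against 101 to 131 CPM. Hebp1 stood at 39.5 to 51.7 against 69.2 to 82.0 CPM, and Cd163, Ftl1 and Fth1 were lower in every library. The Tfrc ranges overlapped (11.1 to 17.8 against 13.6 to 25.5 CPM). These differences between dividing and other macrophages were not tested. The share of all genes that lay lower in dividing macrophages was not counted, so the differences cannot be read as particular to these genes. Dividing macrophages were also deeper, with a median of 13343 to 15931 UMIs per cell against 9737.5 to 11152. Hmox1 in mature neutrophils was 28.6, 62.0, 102 and 137 CPM in the same order, from 2 to 38 UMIs per library, and was not tested either.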
